A study of Mus musculus with 6 samples.

Results

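Synovial cells with mRNA of Fxyd2, Aqp1 or both, together with Csf1r, were examined in single-cell RNA sequencing of the arthritic mouse knee. They had no detected mRNA of the resident macrophage genes Lyve1, Folr2 and Vsig4. They were selected on unscaled counts of unique molecular identifiers (UMIs, each marking 1 captured RNA molecule) as cells with at least 2 UMIs of Fxyd2 and Aqp1 summed, at least 1 UMI of Csf1r, and 0 UMIs of Lyve1, Folr2 and Vsig4 summed. The rule found 269 of 32953 cells, or 0.816% (95% Wilson interval 0.725 to 0.919). They are called Fxyd2-Aqp1 cells here, although only 108 of them (40.1%) had UMIs of both genes. The levels of the 6 genes of the rule chose the cells and are therefore description.

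The cells came from male C57BL/6 mice, bought at 8 weeks of age, with antigen-induced arthritis. All mice were immunized with 10 μg methylated bovine serum albumin in complete Freund's adjuvant and received 100 μg of the same antigen into the knee on day 21. From then on they were given either vehicle (PBS, 2 samples) or 300 μg of the peptide PEPITEM (4 samples), and CD45+ cells, that is leukocytes, were sorted from the digested synovium at day 3 after the joint injection. Barcodes carry a library number from 1 to 6 that no source used here ties to a sample, so vehicle and PEPITEM were not compared. The libraries are of unknown treatment, and the spread between them mixes treatment with any other difference between mice and preparations.

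Csf1r encodes the receptor for macrophage colony-stimulating factor and is carried by monocytes, macrophages and part of the dendritic cells. In the healthy joint, resident macrophages line the cavity or sit beneath the lining, and many of them express scavenger and efferocytosis receptors such as Lyve1, Folr2, Vsig4, Cd163 and Timd4. Monocytes that enter during inflammation give rise to further macrophages, and these often carry MHC class II molecules, which present peptides to CD4+ T cells. Fxyd2 encodes the gamma subunit that modulates the Na,K-ATPase, and Aqp1 encodes a water channel.

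In the mouse genome (GRCm38, GENCODE annotation) the coding genes that name the population lie apart. Fxyd2 is at chr9:45399669-45410278 and Aqp1 at chr6:55336432-55348555, both on the plus strand. The other genes proposed as its markers were Lyz1, a lysozyme, at chr10:117287797-117292868 on the minus strand, Mgl2, a galactose-binding C-type lectin, at chr11:70130329-70137550 on the plus strand, and Tnfsf9, the ligand of the T cell receptor 4-1BB, at chr17:57105325-57107757 on the plus strand. RefSeq promoter sequences (GRCm38.p6) were matched for 3 of these 5 genes, Aqp1, Lyz1 and Mgl2. Lyz1 and its neighbor Lyz2 are shown because Lyz1 varied between the populations while Lyz2 differed by less than 2-fold, and Aqp1 is shown as a gene of the rule. Each sequence holds the 250 bases before the transcription start, and capitals mark matches on either strand to AGGAAGT, a core of PU.1 sites, or to TTGCNNAA, a C/EBP-type motif. TGANTCA, a motif of the AP-1 type, was searched as well and had no match in the 3 windows.
Lyz1, chr10:117292869-117293118, minus strand: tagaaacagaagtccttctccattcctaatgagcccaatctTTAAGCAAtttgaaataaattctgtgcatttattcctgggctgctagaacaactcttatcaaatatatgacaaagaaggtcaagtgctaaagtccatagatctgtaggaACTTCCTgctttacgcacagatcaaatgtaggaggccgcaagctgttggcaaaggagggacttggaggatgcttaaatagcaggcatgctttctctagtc
Lyz2, chr10:117282273-117282522, minus strand: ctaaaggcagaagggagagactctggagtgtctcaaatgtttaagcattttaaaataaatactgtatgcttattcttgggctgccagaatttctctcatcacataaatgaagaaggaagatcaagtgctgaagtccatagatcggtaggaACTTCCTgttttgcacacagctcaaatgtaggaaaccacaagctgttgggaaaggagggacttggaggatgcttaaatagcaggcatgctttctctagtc
Aqp1, chr6:55336049-55336298, plus strand: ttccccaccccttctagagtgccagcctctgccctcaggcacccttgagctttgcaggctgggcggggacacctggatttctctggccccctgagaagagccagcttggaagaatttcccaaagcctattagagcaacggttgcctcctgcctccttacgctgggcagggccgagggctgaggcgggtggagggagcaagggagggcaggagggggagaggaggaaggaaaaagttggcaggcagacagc

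Among 32851 mouse promoters of the same length, 7.69% held AGGAAGT, 6.75% held TGANTCA and 9.56% held TTGCNNAA. The AGGAAGT match lay at the same place in Lyz1 and Lyz2, its nearest base 94 bases before the start, and the TTGCNNAA match was in Lyz1 and not in Lyz2. The Lyz1 and Lyz2 windows had the same base at 60.8% of 250 positions, and at 92 of the 100 positions nearest the start. The genes are 5475 bases apart. Of the 30-base words in the last 500 bases of the longest Lyz1 transcript, 38.0% also occur in Lyz2. A 3′ read within such a stretch could come from either gene, so the Lyz1 counts are uncertain. Reads were not examined, and the share of words does not measure how many counts are affected. No such word of the Mgl2 end occurs in its neighbor Clec10a, but 25.1% of those of the Clec10a end occur in Mgl2, so the Clec10a counts are uncertain.

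The Fxyd2-Aqp1 cells were few in every library. They numbered 57, 20, 37, 66, 46 and 43 in libraries 1 to 6, and made up between 0.344% of the cells in library 2 and 1.70% in library 1 (median 0.919%). Of the 13229 cells with Csf1r they were 2.03% (1.81 to 2.29), with libraries 1, 3 and 4 above and libraries 2, 5 and 6 below the pooled share. Library 2 stood apart with the fewest cells, and results that rest on it are given with and without it where that matters. The intervals cover counting error only. Library depth was 47273569 to 123367661 UMIs. The Fxyd2-Aqp1 cells had a median of 17988 UMIs, 4076 genes and 2.06% mitochondrial UMIs. Barcodes were shared by 2 libraries in 138 cases, covering 276 cells, of which 2 were Fxyd2-Aqp1 cells, and no shared pair had both cells in the population.

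**Figure D1:**
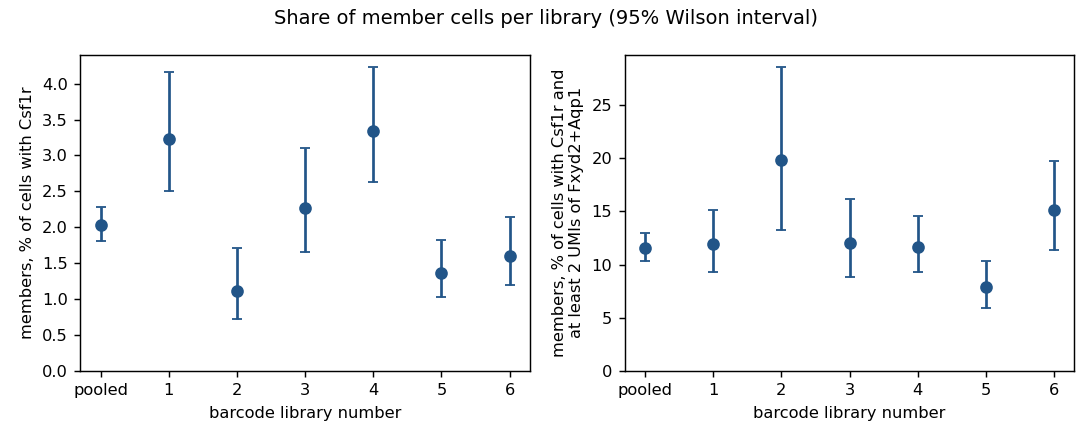
Share of Fxyd2-Aqp1 cells in each barcode library and pooled, as a percentage of cells with Csf1r (left) and of cells with Csf1r and at least 2 UMIs of Fxyd2 and Aqp1 (right). Points are shares and bars are 95% Wilson intervals; the left panel is highest in libraries 1 and 4, while the right panel is highest in library 2, at 19.8%.

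Most Csf1r cells with at least 2 UMIs of Fxyd2 and Aqp1 summed also carried the resident genes. Of 2323 cells with Csf1r and at least 2 UMIs of Fxyd2 and Aqp1, 11.6% (10.3 to 12.9) had no UMI of Lyve1, Folr2 or Vsig4. This share ran from 7.86% in library 5 to 19.8% in library 2. The remaining 2054 cells, called double-positive here, had a median of 14 UMIs of Fxyd2 and Aqp1 and of 21 UMIs of the resident genes, against 3 UMIs of Fxyd2 and Aqp1 in the Fxyd2-Aqp1 cells. The median depth of the double-positive cells was 14086 UMIs, below that of the Fxyd2-Aqp1 cells.

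Many cells sat close to the limits of the rule. Exactly 2 UMIs of Fxyd2 and Aqp1 were found in 92 Fxyd2-Aqp1 cells, 3 to 5 in 83, 6 to 11 in 39 and at least 12 in 55. Just outside, 368 cells met the other limits with 1 UMI, 90 cells had 1 UMI of the resident genes and 68 had 2. Lyz1 stood at 366 counts per 1000000 UMIs of the population (CPM) in the cells with exactly 2 UMIs and at 123 CPM in those with 1. In the same order Mgl2 was at 240 and 159 CPM, and Tnfsf9 at 96.0 and 66.4 CPM. The MHC class II genes H2-Ab1, at 3875 and 3555 CPM, and Cd74, at 9153 and 8344 CPM, were close on both sides of this limit. In the cells with 1 UMI of the resident genes Lyz1 was at 636 CPM, against 435 CPM in the Fxyd2-Aqp1 cells. Fxyd2 alone was detected in 133 of the Fxyd2-Aqp1 cells, Aqp1 alone in 28 and both in 108, or 40.1%, compared with 76.5% of double-positive cells. At least 2 UMIs of Fxyd2 and Aqp1 were also found in 1 of 854 T cells (0.117%) and 3 of 5740 B cells (0.0523%). So they were in 53 of 5362 cells that met the other limits of the monocyte gate below (0.988%). Median depths were 10269, 5928 and 19805 UMIs. The monocyte gate requires Csf1r and excludes the resident genes. Those 53 cells therefore met the rule and are counted among the Fxyd2-Aqp1 cells. Whether their Fxyd2 and Aqp1 UMIs came from the cells themselves was not tested. The limit of 2 UMIs was thus seldom met in lymphocytes.

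The population was not one cell type by its fixed markers. Beside Csf1r, which the rule requires, all 7 other pan-macrophage genes were detected, with a summed level of 3094 CPM (2282 to 3943 over libraries), led by Cd14, the endotoxin co-receptor, at 1264 CPM. Adgre1, which encodes F4/80, was found in 77.3% of the cells and in 0.937% of T cells, at median depths of 17988 and 10269 UMIs. Leiden clustering of all 32953 cells gave 33 clusters at resolution 1.0, and the Fxyd2-Aqp1 cells fell mainly into 4 of them. A cluster led by Lyve1, Fxyd2, Aqp1 and Vsig4 held 75 cells (27.9%), together with 88.9% of the double-positive cells. A cluster led by Ccl17, Cd209a, Tmtc2 and Ccl22, with H2-Eb1 and H2-Ab1 among its leading genes, held 69 cells (25.7%). A cluster led by Cxcl9, Cxcl10 and Mmp19 held 53 (19.7%), and one led by Ccl8 and Apoe held 44 (16.4%). The other 28 cells were spread over further clusters, among them 7 in a cluster led by Car1, Angpt1 and Ctla2a and 4, all from library 1, in one led by Dcn, Prg4 and Col1a2. The label macrophage was not borne out for all of these cells, and they are described by their rule and leading genes.

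The number of Fxyd2 and Aqp1 UMIs in a cell went with its cluster. In the cluster led by Lyve1 were 10.9% of the cells with 2 UMIs, 15.7% of those with 3 to 5, 38.5% of those with 6 to 11 and 67.3% of those with at least 12. The clusters led by Cxcl9 and by Ccl8 went the other way, from 28.3% and 26.1% of the cells with 2 UMIs to 3.64% and 1.82% of those with at least 12. The cluster led by Ccl17 and Cd209a held between 18.2% and 38.5% in the 4 bins. Clusters were built from all genes, Fxyd2 and Aqp1 included, and these shares are description.

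**Figure D2:**
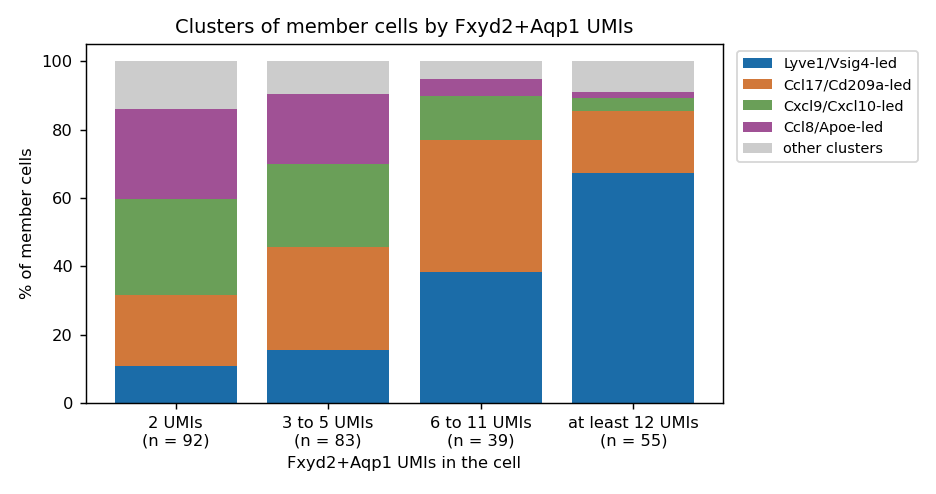
Percentage of Fxyd2-Aqp1 cells (y axis) in each Leiden cluster at resolution 1.0, by the number of Fxyd2 and Aqp1 UMIs in the cell (x axis, 4 bins with their cell numbers). The Lyve1/Vsig4-led cluster (bottom segment) grows from 10.9% to 67.3% from the lowest to the highest bin.

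For comparison, 3 populations with Csf1r were used. Beside the double-positive cells these were 772 cells with at least 2 UMIs of Folr2, Lyve1 and Vsig4 and no Fxyd2 or Aqp1 (called Folr2-Lyve1-Vsig4 cells), and 5170 monocytes with at least 2 UMIs of Ly6c2 and at least 1 of Ccr2, without Fxyd2, Aqp1 and the resident genes. A further 274 dendritic cells, gated on at least 2 UMIs of Cd209a and 1 of Flt3 and likewise without Fxyd2, Aqp1 and the resident genes, served for their levels; 134 of them were also in the monocyte gate. A gene counted as higher or lower when it reached 50 CPM in 1 of the 2 populations, differed at least 2-fold after adding 1 CPM, and kept that direction in all 6 libraries. Genes of the gates were left out. This is a rule of size and direction, not a test.

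Against the double-positive cells, 64 of 3802 genes (1.68%) were higher in the Fxyd2-Aqp1 cells and 192 (5.05%) were lower, and the median log2 fold of all genes compared was -0.0596. All 6 MHC class II genes that reached the level were higher, and 11 of 12 resident macrophage genes were lower. Against the Folr2-Lyve1-Vsig4 cells, 72 of 3634 genes (1.98%) were higher and 67 (1.84%) lower, with a median log2 fold of 0.00865. Against the monocytes, 252 of 3826 genes (6.59%) were higher and 138 (3.61%) lower, with a median of -0.00577. The 3 comparisons share the same 269 cells and are not independent of each other.

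Lyz1, proposed as a marker of the population, was at 435 CPM in the pooled Fxyd2-Aqp1 cells, with 380, 121, 232, 938, 615 and 148 CPM in libraries 1 to 6. In double-positive cells it was at 401, 152, 205, 355, 210 and 229 CPM in the same order. The ranges of the libraries overlapped, and Lyz1 was higher in the Fxyd2-Aqp1 cells in 3 of the 6 (1.51-fold pooled). Below both stood the Folr2-Lyve1-Vsig4 cells at 35.7 CPM (19.4 to 60.1 over libraries) and the monocytes at 17.8 CPM (7.98 to 63.0), neither of which reached the lowest library of the Fxyd2-Aqp1 cells. The pooled level was 11.9-fold and 23.2-fold that of these populations, higher in every library. Lyz1 was found in 35.7% of Fxyd2-Aqp1 cells and in 0.117% of T cells. Lyz2, the lysozyme gene common to myeloid cells, was at 7411 CPM in the Fxyd2-Aqp1 cells and 7221 CPM in the double-positive cells, and was not counted as different in any of the 3 comparisons.

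Mgl2 was at 274, 73.1, 68.9, 372, 256 and 215 CPM in libraries 1 to 6, and at 227 CPM pooled. Libraries 2 and 3 were low, and without library 3 the pooled level was 260 CPM. In double-positive cells Mgl2 was at 85.2 CPM (29.5 to 121), and in 5 of 6 libraries it was higher in the Fxyd2-Aqp1 cells, the exception being library 3. That direction rested on the 69 cells of the Ccl17-led cluster, since the other 200 Fxyd2-Aqp1 cells had Mgl2 at 52.4 CPM, below the double-positive cells. Folr2-Lyve1-Vsig4 cells had 32.2 CPM and monocytes 20.1 CPM, and Mgl2 was higher in the Fxyd2-Aqp1 cells by 6.87-fold and 10.8-fold in all libraries. In the other 200 cells, at 52.4 CPM, Mgl2 was not counted as higher than in either population. The Cd209a dendritic cells stood above the Fxyd2-Aqp1 cells, at 347 CPM. Mgl2 was detected in 42.0% of Fxyd2-Aqp1 cells and 0.468% of T cells. Its neighbor Clec10a, a related lectin, was at 36.7 CPM in the Fxyd2-Aqp1 cells and lower than in double-positive cells (99.4 CPM), with the uncertainty of its counts given above.

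Tnfsf9 was at 224, 18.3, 143, 163, 226 and 127 CPM in libraries 1 to 6. Library 2 was far below the others, and without it the pooled level was 178 CPM against 162 CPM with it. Tnfsf9 was counted as higher against the Folr2-Lyve1-Vsig4 cells (25.1 CPM, 6.26-fold). Against the double-positive cells (95.8 CPM) and the monocytes (18.0 CPM) it was higher in 5 of 6 libraries, library 2 being the exception, and it was counted in neither comparison. The pooled difference from the double-positive cells was 1.69-fold, under the 2-fold limit as well, and that from the monocytes was 8.59-fold. Its level in the Cd209a dendritic cells, 147 CPM, lay within the library range of the Fxyd2-Aqp1 cells. The gene was found in 46.8% of Fxyd2-Aqp1 cells and 7.73% of T cells.

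**Figure D3:**
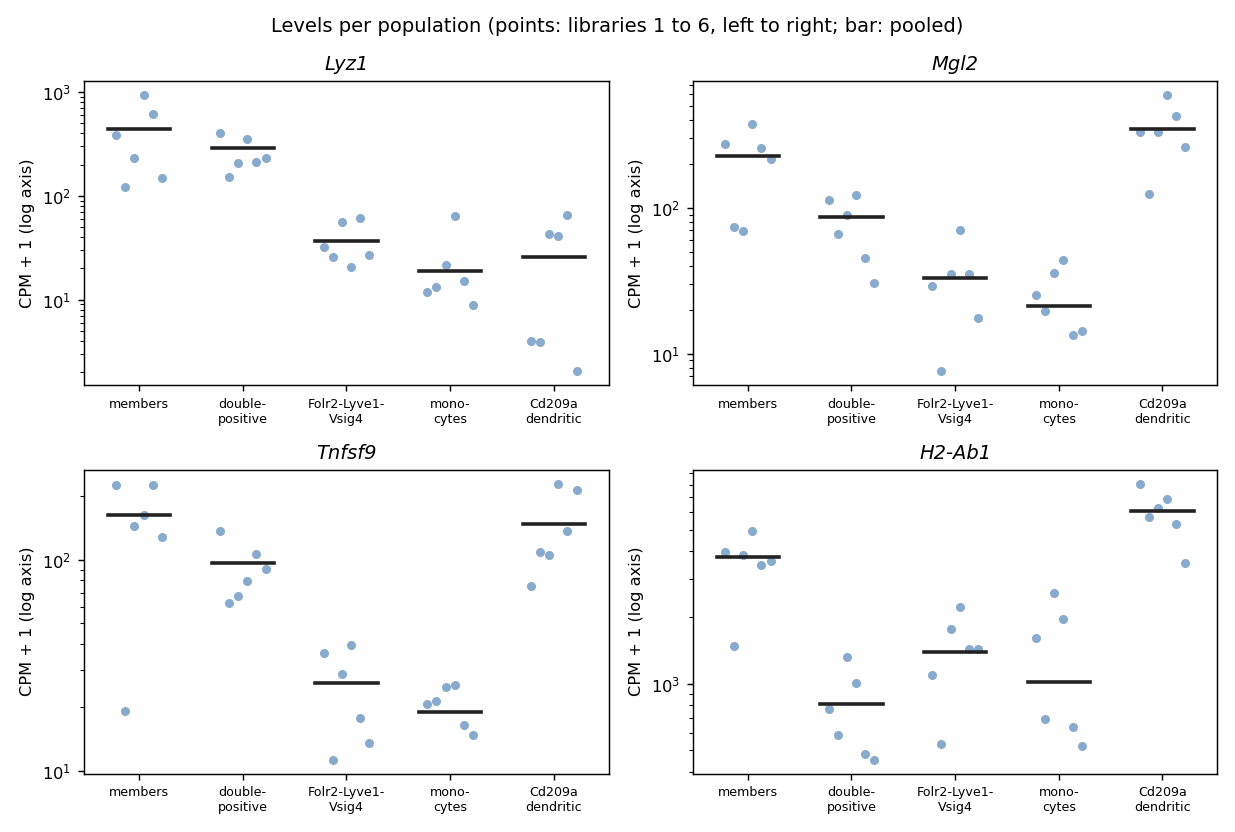
Levels of Lyz1, Mgl2, Tnfsf9 and H2-Ab1 in 5 populations (x axis) as CPM plus 1 on a log axis. Points are libraries 1 to 6 from left to right and bars are pooled levels; Lyz1 separates Fxyd2-Aqp1 (members) and double-positive cells from the rest, while Mgl2, Tnfsf9 and H2-Ab1 are also high in Cd209a dendritic cells.

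The 3 marker genes were not carried by one set of cells. Among the 96 Fxyd2-Aqp1 cells with Lyz1, 55.2% (45.3 to 64.8) also had Mgl2, compared with 34.7% of the 173 cells without Lyz1, although the latter were deeper (median 20231 against 15381 UMIs). Tnfsf9 was found in 62.8% (53.6 to 71.2) of the 113 cells with Mgl2 and in 35.3% of the 156 cells without it. H2-Ab1 accompanied Mgl2 in 98.2% of cells and was found in 70.5% of cells without Mgl2. Mamdc2, an extracellular matrix gene, was found in 40.1% of all Fxyd2-Aqp1 cells. It reached 69.7 CPM (41.3 to 141 over libraries), about the 72.7 CPM of double-positive cells, against 4.68 CPM in Folr2-Lyve1-Vsig4 cells and 1.03 CPM in monocytes, and was higher than in both of these in all libraries.

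MHC class II genes were higher in the Fxyd2-Aqp1 cells than in double-positive cells as a group. H2-Ab1, a class II beta chain, was at 3965, 1481, 3854, 4939, 3461 and 3608 CPM in libraries 1 to 6, against 769, 585, 1321, 1006, 478 and 451 CPM in double-positive cells. The library values did not overlap, and the pooled fold was 4.67. H2-Aa (4.40-fold), H2-Eb1 (4.83-fold), the invariant chain Cd74 (4.57-fold), and H2-DMa and H2-DMb1, which load peptides, were also higher, giving 6 of 6 genes compared and a median log2 fold of 2.17. All 6 were higher than in the Folr2-Lyve1-Vsig4 cells as well (median log2 fold 1.41). In the comparison with monocytes 5 of 6 were higher (median 1.90), the exception being H2-DMa. The Cd209a dendritic cells had more H2-Ab1 than the Fxyd2-Aqp1 cells, at 6061 CPM.

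MHC class II levels were highest in the cells in the cluster led by Ccl17 and Cd209a. Their H2-Ab1 level was 7272 CPM, against 2582 CPM in the cells of the Lyve1-led cluster, 4028 CPM in the Cxcl9-led cluster and 2490 CPM in the Ccl8-led cluster. With the 69 cells of the Ccl17-led cluster left out, H2-Ab1 fell to 2537 CPM and Mgl2 to 52.4 CPM, while Lyz1 was 354 CPM. Over the 5 libraries that still had enough cells, all 6 class II genes were higher than in double-positive cells (1.00% of 3796 genes were), but 0 of 6 than in Folr2-Lyve1-Vsig4 cells (0.831% of 3608 genes). The markers of migratory dendritic cells sat in few cells: the 5 cells richest in Ccr7 held 88.5% of its UMIs, those richest in Fscn1, which bundles actin, held 100%, and both genes were at 0 CPM in library 2.

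Resident macrophage genes were low beside the double-positive cells. Lyve1, Folr2 and Vsig4 were at 0 by the rule. Of the 12 others compared, 11 were lower (median log2 fold -2.12), with C1qb as the exception, against 5.05% of all genes. Both populations were set apart by UMIs of Lyve1, Folr2 and Vsig4. Genes expressed along with these could differ through that choice alone, so these counts are description. Gas6, a bridging ligand for apoptotic cells, was at 24.0 CPM (at most 35.6 in any library) against 359 CPM (181 to 416). Ltc4s (leukotriene C4 synthase), Cbr2 and F13a1, the coagulation factor XIII A chain, followed the same course, F13a1 at 218 CPM against 1614 CPM. Cd163, the hemoglobin scavenger receptor, was at 78.2 CPM (45.6 to 108) against 345 CPM (152 to 435), and Pf4 at 713 CPM (402 to 985) against 3090 CPM (1544 to 3599). In these genes the highest library of the Fxyd2-Aqp1 cells lay below the lowest library of the double-positive cells. Timd4, which binds phosphatidylserine, was at 14.2 CPM, but 5 cells held 86.1% of its UMIs.

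The resident genes differed in direction with the population beside which they were set. Cd163 was 28.1-fold higher than in monocytes, where it was low (1.81 CPM), and 2.63-fold higher than in Folr2-Lyve1-Vsig4 cells (29.1 CPM). Cd163 was the 1 higher gene of 10 of the resident list compared with Folr2-Lyve1-Vsig4 cells, while F13a1, Cbr2 and Stab1 were lower and 6 were neither (median log2 fold -0.64). Against monocytes 6 of 7 genes of the resident list were higher, Cd163, Mrc1, Pf4, C1qa, C1qb and C1qc, while F13a1 was lower. C1qa, a complement recognition subunit, was at 1003 CPM in the Fxyd2-Aqp1 cells (678 to 1601), between the 2543 CPM of double-positive cells and the 146 CPM of monocytes.

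**Figure D4:**
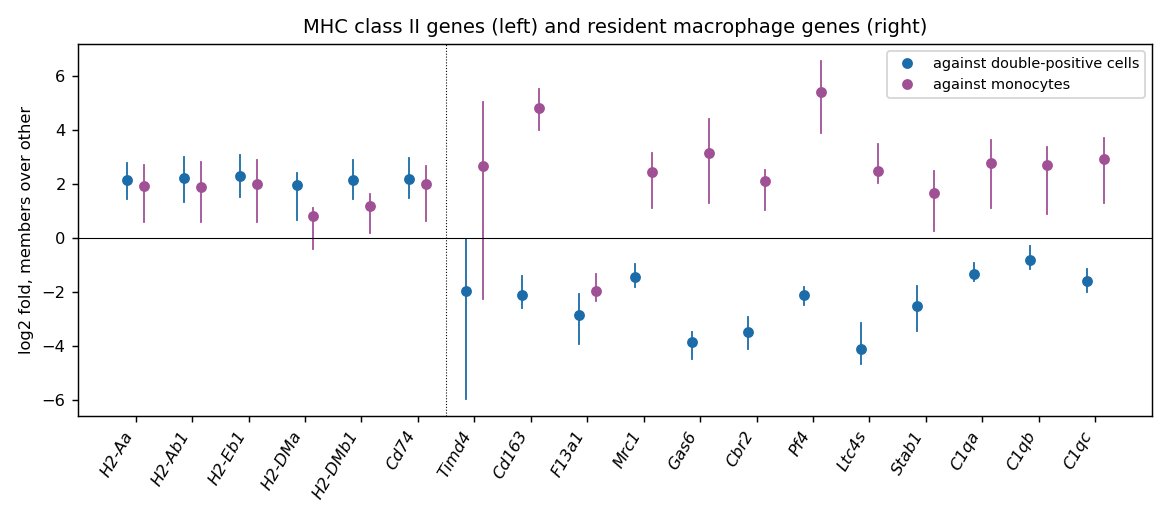
Log2 fold of the Fxyd2-Aqp1 cells over double-positive cells and over monocytes (y axis) for 6 MHC class II genes and 12 resident macrophage genes (x axis). Points are pooled folds and lines span the lowest and highest of 6 libraries; all class II folds over double-positive cells are above 0 and all resident gene folds over double-positive cells are below 0, while over monocytes 11 of the 12 resident genes have a pooled fold above 0, F13a1 being the exception.

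Other fixed groups differed in smaller numbers. Beside double-positive cells, 3 of 7 pan-macrophage genes other than the gate gene Csf1r were lower (Mertk, Lgmn and Ctsb; median log2 fold -0.85). Further, 5 of 8 complement genes were lower (C1qa, C1qc, C3ar1, C4b and C5ar1), as were 6 of 9 efferocytosis and scavenger genes (Mertk, Timd4, Stab1, Cd36, Cd163 and Gas6). Of 8 iron and heme genes, Hmox1, Tfrc, Cd163 and Blvrb were lower. Of 8 growth factors, Hbegf, Igf1, Pdgfc and Bmp2 were lower, and of 15 lysosomal genes Ctsb, Ctsd, Lgmn and Cd63 were lower and Ctsh higher. The transcription factors Maf, which accompanies macrophage identity, and Klf4 were the 2 lower of 23 compared, a share near the 5.05% of all genes. When the 69 cells of the Ccl17-led cluster were left out, 1 of 7 pan-macrophage genes (Mertk), 0 of 15 lysosomal genes and 3 of 8 complement genes (C1qa, C1qc and C4b) were lower, against 4.24% of all 3796 genes compared over 5 libraries.

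Beside Folr2-Lyve1-Vsig4 cells, which lack Fxyd2 and Aqp1, some of the same groups were lower. Of 7 pan-macrophage genes, 6 were lower (Adgre1, Fcgr1, Mertk, Cd68, Lgmn and Ctsb; median log2 fold -1.13), as were 5 of 8 efferocytosis and scavenger genes (Mertk, Stab1, Cd36, Msr1 and Itgb5), Cd163 being higher. Of 19 inflammatory mediators, the chemokines Ccl2, Ccl6, Ccl7, Ccl8 and Ccl12 were lower, Ccl8 at 125 CPM against 942 CPM. Of 11 lipid handling genes, Apoe, Fabp5, Gpnmb, Spp1 and Plin2 were lower, and of 14 lysosomal genes Ctsb, Ctsd, Ctsl, Lgmn and Cd68. The interferon-induced genes Isg15, Irf7, Oasl2 and Iigp1 were lower of 9 compared. Higher were Lyz1, Mgl2, Tnfsf9, Mamdc2, the metallothionein Mt2, the adhesion molecule Icam1, the growth factor receptor Fgfr1, Crip2 and the tetraspanin Cd81. Irf4, a transcription factor of type 2 dendritic cells and of alternatively activated macrophages, was at 64.5 CPM (21.2 to 116) and 4.66-fold higher. Without the 69 cells of the Ccl17-led cluster Irf4 was at 30.0 CPM, under the level to be compared. Over the other 200 cells, 4 of 7 pan-macrophage genes, 1 of 8 efferocytosis and scavenger genes (Stab1) and 2 of 9 interferon-induced genes (Isg15 and Irf7) were lower, against 0.970% of 3608 genes.

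Against monocytes, 4 of 5 classical monocyte genes were lower (Plac8, Vcan, Chil3 and Hp), against 3.61% of all 3826 genes. The monocytes were gated on Ly6c2 and Ccr2 of the same list, so the lower monocyte genes are description. Of 6 cycling genes, 5 were lower (Top2a, Stmn1, Birc5, Cdk1 and Tyms). Plac8 was at 370 CPM against 2100 CPM. The largest folds lower were those of Igkc of the B cell list (6.84 against 426 CPM), Elane (24.1 against 391), Prtn3 (72.2 against 648) and Mpo (37.8 against 331). Elane, Mpo and Prtn3 led another cluster of all cells. The monocyte gate may thus hold RNA or cells of other kinds, and their part in the lower cycling genes was not tested. Of 6 pan-macrophage genes compared with monocytes, 0 were counted as higher or lower. Only the cycling genes Mki67 and Stmn1 reached the level beside double-positive and Folr2-Lyve1-Vsig4 cells, and both were higher there. Stmn1 was at 129.7 CPM against 28.8 CPM and 40.3 CPM, and at 399 CPM in monocytes. Of the list for type 2 responses, Irf4, Mgl2, Tmem176a and Tmem176b were higher than in Folr2-Lyve1-Vsig4 cells (4 of 12 compared, with Ccl24 lower) and, with Mrc1, than in monocytes (5 of 9, with Chil3 lower). Beside double-positive cells 0 of 12 were higher and Retnla, Clec10a, Mrc1 and Ccl24 were lower, although the median log2 fold of the list was 0.59. Without the 69 cells of the Ccl17-led cluster, 0 of 9 type 2 genes were higher than in Folr2-Lyve1-Vsig4 cells and 3 of 6 than in monocytes (Mrc1, Tmem176a and Tmem176b, against 6.29% of 3834 genes), and the median beside double-positive cells was -0.69. Tmem176b, which encodes a membrane protein, was at 302 CPM against 130.1 CPM in Folr2-Lyve1-Vsig4 cells and 99.5 CPM in monocytes (2.31-fold and 3.01-fold).

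Some related genes of the families of the rule were measured as well. Fxyd5, which encodes dysadherin, was the most abundant FXYD gene at 1095 CPM, and Fxyd3 was at 0. Besides the gate gene, Fxyd5 alone reached the level to be compared, and it was not counted as higher or lower. Atp1b3, a Na,K-ATPase subunit, was at 222 CPM and was not counted as higher or lower in the 3 comparisons. Aqp1 supplied 146 of the 164 CPM of the 5 aquaporins in the table.

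A finer clustering separated a set of cells around Lyz1. At resolution 2.0 a cluster of 271 cells was led by Lyz1, Retnla, Fxyd2, Mamdc2, Tnfsf9, Aqp1, Mgl2, Pf4 and Ndnf, and it held 81 Fxyd2-Aqp1 cells (30.1%), with 20, 5, 6, 29, 14 and 7 in libraries 1 to 6. It also held 96 double-positive cells, or 4.67% of those, and 91 cells with fewer than 2 UMIs of Fxyd2 and Aqp1. Of its 81 Fxyd2-Aqp1 cells, 49 had been in the Lyve1-led cluster at resolution 1.0, 26 in the Ccl17-led cluster and 6 in the Cxcl9-led cluster. The genes proposed as markers lead this cluster, and 188 Fxyd2-Aqp1 cells lay outside it.

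Levels inside and outside this cluster are described without a test, since the cluster was made from the same genes. Lyz1 was at 1320 CPM in the Fxyd2-Aqp1 cells inside and 205 CPM in those outside, and at 1084 and 253 CPM in double-positive cells inside and outside. Tnfsf9 was at 333 and 118 CPM in the Fxyd2-Aqp1 cells, Mamdc2 at 195 and 37.0 CPM, and Ndnf at 103 and 14.8 CPM. Fxyd2 was at 1179 and 191 CPM. Inside the cluster the Fxyd2-Aqp1 cells thus had Fxyd2 in the range of double-positive cells, while F13a1 was at 101 CPM and Gas6 at 37.5 CPM. Double-positive cells had F13a1 at 562 CPM inside and 1660 CPM outside, and Gas6 at 199 and 366 CPM. In the Fxyd2-Aqp1 cells H2-Ab1 was at 4403 CPM inside and 3611 CPM outside, and Ccr2, the receptor of monocyte chemokines, at 721 and 354 CPM. The cells inside with fewer than 2 UMIs of Fxyd2 and Aqp1 carried the proposed markers too. Their Lyz1 was at 1049 CPM, Tnfsf9 at 225, Mamdc2 at 63.2 and Ndnf at 75.8 CPM, below the Fxyd2-Aqp1 cells inside. Their Mgl2, at 425 against 335 CPM, and their H2-Ab1, at 6622 CPM, were above them. The library ranges overlapped for all of these genes. Retnla, a gene of type 2 responses, was at 77.6 CPM in the Fxyd2-Aqp1 cells inside, 548 CPM in the double-positive cells inside and 2553 CPM in the cells inside with fewer than 2 UMIs of Fxyd2 and Aqp1. It was found in only 7.41%, 9.38% and 13.2% of these cells, and the libraries with at least 5 such cells ran from 0 to 366, 0 to 2952 and 0 to 13557 CPM, so the ranges overlapped and the pooled order rests on few cells.

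**Figure D5:**
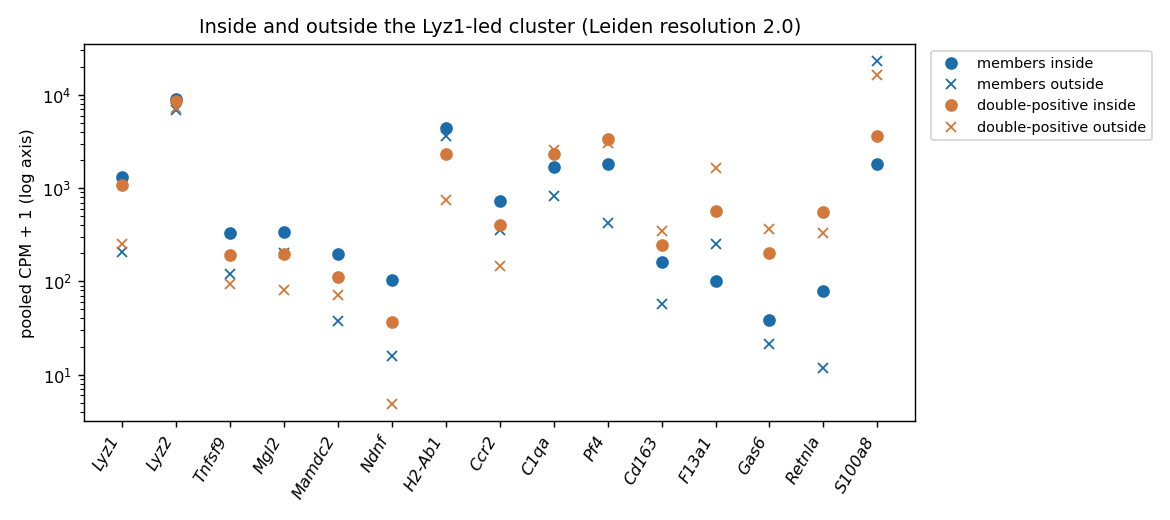
Pooled levels (CPM plus 1, log axis) of 15 genes in Fxyd2-Aqp1 cells (members) and double-positive cells inside (circles) and outside (crosses) the Lyz1-led cluster at resolution 2.0. Lyz1 is at 1320 and 1084 CPM inside and at 205 and 253 CPM outside, while S100a8 is lower inside in both populations. The cells of the cluster with fewer than 2 UMIs of Fxyd2 and Aqp1 are not drawn.

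Within each of the 4 large clusters at resolution 1.0, the Fxyd2-Aqp1 cells were set beside cells of the same cluster with Csf1r but without Fxyd2, Aqp1 and the resident genes. Lyz1 was higher in the Fxyd2-Aqp1 cells in all 4, by 5.42-fold in the Lyve1-led, 4.54-fold in the Ccl17-led, 6.91-fold in the Cxcl9-led and 2.60-fold in the Ccl8-led cluster. Mamdc2 was higher by 8.08-fold, 11.8-fold, 11.8-fold and 2.40-fold in the same order, from low levels in the other cells, and Tnfsf9 by 2.36-fold, 2.14-fold, 2.81-fold and 1.43-fold. Mgl2 went both ways, at 0.659-fold, 1.45-fold, 2.02-fold and 0.537-fold. H2-Ab1 differed by less, between 0.920-fold and 1.20-fold. C1qa was 5.81-fold higher in the Ccl17-led cluster, at 485 CPM against 82.6 CPM, and 1.37-fold to 1.98-fold higher in the others. Other genes of the resident list rose as well, most in the Ccl17-led and Cxcl9-led clusters. In the order above, Pf4 stood at 1.42-fold, 16.0-fold, 4.40-fold and 1.66-fold. Cd163 stood at 0.972-fold, 4.17-fold, 6.91-fold and 1.65-fold, and Mrc1 at 0.590-fold, 1.84-fold, 1.82-fold and 0.876-fold. Only 45 other cells stood beside the 75 of the Lyve1-led cluster, and their median depth was 6747 against 11625 UMIs. All these folds are pooled over libraries, without a direction per library, and the libraries contributed unequally. Library 4, with the highest Lyz1, held 20 of the 53 Fxyd2-Aqp1 cells of the Cxcl9-led cluster but 229 of its 1559 other cells.

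RNA of other cell types was present. The neutrophil list summed to 47645 CPM in the Fxyd2-Aqp1 cells (8964 to 112235 over libraries), and all 10 of its genes were detected, led by S100a9 at 19546 CPM. At least 3 UMIs of the list were found in 31.2% of Fxyd2-Aqp1 cells, 31.4% of double-positive cells and 1.05% of T cells. In the Ccl8-led cluster 97.7% (88.2 to 99.6) of the Fxyd2-Aqp1 cells had at least 3 such UMIs, with S100a8 at 40909 CPM, against 13.3% in the Lyve1-led, 24.6% in the Ccl17-led and 7.55% in the Cxcl9-led cluster. In the Lyz1-led cluster it was 3.70% (1.27 to 10.3). S100a8 in the pooled population was lowest in library 4 (3600 CPM) and highest in library 2 (42817 CPM), the libraries with the highest and lowest Lyz1. The part of neutrophil RNA in these differences was not tested.

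The B cell list reached 3 UMIs in 21.2% of Fxyd2-Aqp1 cells, with a summed level of 84.3 CPM led by Ighm and with Ms4a1 at 0. The fibroblast list reached it in 32.7%, but only in 4 cells once Pdpn was left out, a gene that inflammatory macrophages also express, and 5 cells held 99.5% of the Dcn UMIs. The T cell list was led by Cd3d at 2.34 CPM, and the NK cell genes Ncr1, Gzma and Prf1 were at 0. Of the erythroid list, Hba-a1, Hba-a2 and Hbb-bt were at 0 and Car1 led at 29.5 CPM. The osteoclast list summed to 394 CPM, led by Mmp9, which neutrophils carry too, with Calcr at 0. In the lining macrophage list, Cd9 led at 804 CPM, and Cldn5 was at 0 besides Vsig4, which the rule sets to 0.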

How the data were processed

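The authors processed Chromium 3′ libraries of sorted CD45+ cells with Cell Ranger 7 (mm10), and, per the study's methods, removed ambient RNA and doublets and kept cells with 200 to 7000 genes and at most 10% mitochondrial content. They deposited whole UMI counts per gene and cell in 1 matrix, not scaled for depth, in which 1724738 entries are stored as 0. The matrix holds 32953 cells, the number the paper gives as passing quality control, a step its methods place after doublet removal. Whether the counts are those after ambient RNA removal is not given in the sources used here. Counts near the limits of the rule and RNA of other cell types may therefore include ambient RNA, and doublets that were not called. No further doublet call was made. No source used here ties the library numbers to samples, so treatments were not compared. The matrix was counted as 1 sample, and populations were compared within libraries by size and direction alone, with no test. Counts were summed per population to CPM, and 1 CPM was added to both levels for folds. The direction of a fold was read in each library with at least 20 cells in both populations. Clusters came from scanpy 1.11.5 (2000 variable genes, 30 components, 15 neighbours). The gene comparison was tested on simulated data. The population, its members and all gene lists were chosen with earlier results of these data known. Named genes are those of the rule, the proposed markers, the lists, and the 25 largest folds in each direction and comparison. A comparison population, a limit of the monocyte gate and some genes are not reported here. Alternatives changed the limits of the rule, depth, level, fold, clusters and libraries.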

Additional observations from a re-analysis of the deposited data

How the results depend on the processing

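The share of Fxyd2-Aqp1 cells followed the limits of the rule. Of all cells (0.816%) and of cells with Csf1r (2.03%), it was 1.93% and 4.82% with at least 1 UMI of Fxyd2 and Aqp1, 0.537% and 1.34% with at least 3, 0.197% and 0.491% with 2 UMIs of each gene, 1.09% and 2.71% with up to 1 UMI of the resident genes, 7.05% and 17.6% with no such limit, 0.649% and 1.62% with at least 3 UMIs of Csf1r, and 0.524% and 1.56% after thinning to 5000 UMIs. With no limit on Csf1r it was 1.44% of all cells. Leaving out 1 library gave 0.701% to 0.945% of all cells and 1.80% to 2.26% of cells with Csf1r. Leaving out stored zeros and taking the median over libraries stayed within the counting interval.

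Counts of genes higher and lower are given in the order double-positive, Folr2-Lyve1-Vsig4 and monocytes. With at least 10 CPM they were 150 and 383, 187 and 109, and 470 and 357. With at least 200 CPM they were 19 and 68, 16 and 36, and 82 and 47. At 1.5-fold they were 174 and 416, 193 and 254, and 481 and 409, and at 3-fold 22 and 85, 28 and 16, and 124 and 55. Without cells of another lineage list or of very high UMIs, which left 102 Fxyd2-Aqp1 cells and 2 libraries, they were 221 and 308, 212 and 275, and 396 and 327. Thinned to 5000 UMIs, 97 genes were higher than in double-positive cells, and 110 were higher and 120 lower than in Folr2-Lyve1-Vsig4 cells. As a mean over cells, 109 genes were lower than in Folr2-Lyve1-Vsig4 cells. With at least 3 UMIs, a limit chosen after seeing the data like the next, 110 were lower than in these. With at least 6 UMIs, 94 cells over 2 libraries, counts were 189 and 256, and 412 and 293 for the last 2 populations. Fewer libraries make the same direction in every library easier to meet. Leaving out 1 library gave 56 to 77 higher and 174 to 204 lower, 67 to 95 and 44 to 82, and 229 to 286 and 125 to 149, the 44 being without library 1. The Lyve1-led cluster held 40.5% of the cells at resolution 0.5 (27.9% at 1.0) and 5.95% at 2.0, where the Lyz1-led cluster held most (30.1%). At 1.0 the Lyve1-led cluster held 67.3% of those with at least 12 UMIs (a limit also chosen after seeing the data), and 25.6% to 29.3% with 1 library left out. Of 384 values of named genes under these settings, 367 lay between the lowest and highest library value of the main setting and 17 lay outside. The size of the move was not compared with that range. Among those counted as higher or lower, 0 changed direction. Mamdc2 over double-positive cells, not so counted, ran from -0.25 to 0.079 on the log2 scale with 1 library left out. No paired analysis was possible because the replicate numbers of the labels, which could pair samples across treatments, are not tied to the libraries. Populations share libraries and were set side by side within them, and a paired test over libraries was not planned or run.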

Other observations

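Cells with at least 2 UMIs of Fxyd2 and Aqp1 but no Csf1r numbered 242. Of these, 113 (46.7%) lay in a cluster led by Car1 and Angpt1, with Aqp1 at 262 CPM and Fxyd2 at 0.318 CPM, and 46 (19.0%) in one led by Prg4, Dcn and Col1a2, with Aqp1 at 330 CPM, 22 of them from library 5. A further 15 cells led by Hba-a1 and Hbb-bs had Aqp1 at 782 CPM and Fxyd2 at 0. In contrast, 21 cells led by Fscn1 and Ccl22 had Fxyd2 at 363 CPM and Aqp1 at 11.3 CPM. Both genes were high in 18 cells of the Lyve1-led cluster, with Fxyd2 at 1703 CPM and Aqp1 at 1008 CPM, and in 11 cells led by Cd209f and Cd209b, with Fxyd2 at 5260 CPM and Aqp1 at 1186 CPM. The Fxyd2 and Aqp1 sum thus drew mainly on Aqp1 in some cells without Csf1r, mainly on Fxyd2 in others and on both in the rest named here. No test was made.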
